A study of Caenorhabditis elegans with 139 samples.

Results

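The genes described here form a pulse of messenger RNA in the early Caenorhabditis elegans embryo, around the time of gastrulation. A gene was a member if its mean over the 13 embryos labelled 110 to 190 min after the 4-cell stage was at least 50 CPM, the count of a gene scaled to the total of all gene counts in its embryo. That mean also had to be at least 8 times the mean over the 8 embryos at -50 to 10 min, at least 8 times the mean over 17 embryos at 300 to 390 min, and above the mean over the 9 embryos at 60 to 100 min. Embryo number 65 was left out of the late window. The rule selected 72 of the 20687 genes in the table. Of the genes, 3524 reached 50 CPM, and 394 of them passed the early fold. With the late fold instead, 220 genes passed, and 127 passed both. The last 55 genes lost were as high or higher at 60 to 100 min. Members were chosen by these measured levels, so their rise and fall between those windows is a description with no test.

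The series holds 139 libraries, each from 1 embryo, made with CEL-Seq, a method that barcodes and linearly amplifies messenger RNA and reads its 3′ ends. Per the labels' protocol embryos were cut out of adults, picked at the 4-cell stage and kept at 20 °C until frozen, while 2 embryos carry labels of -50 and -30 min and so precede that stage. The labels give no strain, and all embryos were untreated, so labelled time is what differs between groups. The embryos were placed in 11 groups, with 8 at -50 to 10 min, 11 at 20 to 50 min, 9 at 60 to 100 min, 8 at 110 to 140 min, 5 at 150 to 190 min, 11 each at 200 to 220 and 230 to 250 min, 8 at 260 to 290 min, 18 at 300 to 390 min, and 25 each at 400 to 590 and 600 to 840 min. The median embryo had 692649 gene counts (range 12338 to 4557314), and the 13 embryos of the pulse had 513094 to 1996361. The embryo numbers run in 5 series of consecutive numbers, called blocks here, and the labels name no batch. Block 5, embryos 95 to 139, alone covers the pulse at 10-min steps, and it supplied every embryo at 150 to 190 min. The expression of 7 embryos resembled times more than 100 min from their label, among them embryo 61, labelled 200 min, and 13 embryos had under 100000 gene counts.

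Gastrulation in this worm begins when the endoderm precursors sink into the embryo, and the mesoderm and germ line precursors follow, while the zygotic genome has taken over from maternal RNA. Nematodes carry very large families of F-box and BTB proteins, most of which are taken to be substrate adaptors of ubiquitin ligases. An F-box protein is bound to the cullin scaffold through a Skp1-related protein, and the target protein is then tagged for destruction. The sdz genes were named as zygotic transcripts that depend on SKN-1, the maternal factor that specifies the endoderm and mesoderm precursor blastomere EMS.

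By name, 19 members encoded parts of such ligases. They were 12 fbxb genes, 3 fbxc genes, the BTB genes btb-8, btb-10 and btb-11, and the Skp1-related gene skr-7. Another 4 were sdz genes, 8 were regulators of transcription or chromatin, and 7 were enzymes, a transporter or an arrestin-domain gene. The other 34 had no role given here. Symbols other than the sequence name were found for 42 members, and 30 had none. Of the 72 members, 71 were matched to the Ensembl annotation and the long noncoding RNA line linc077 was not. Y82E9BR.1 is annotated as a pseudogene.

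**Figure D1:**
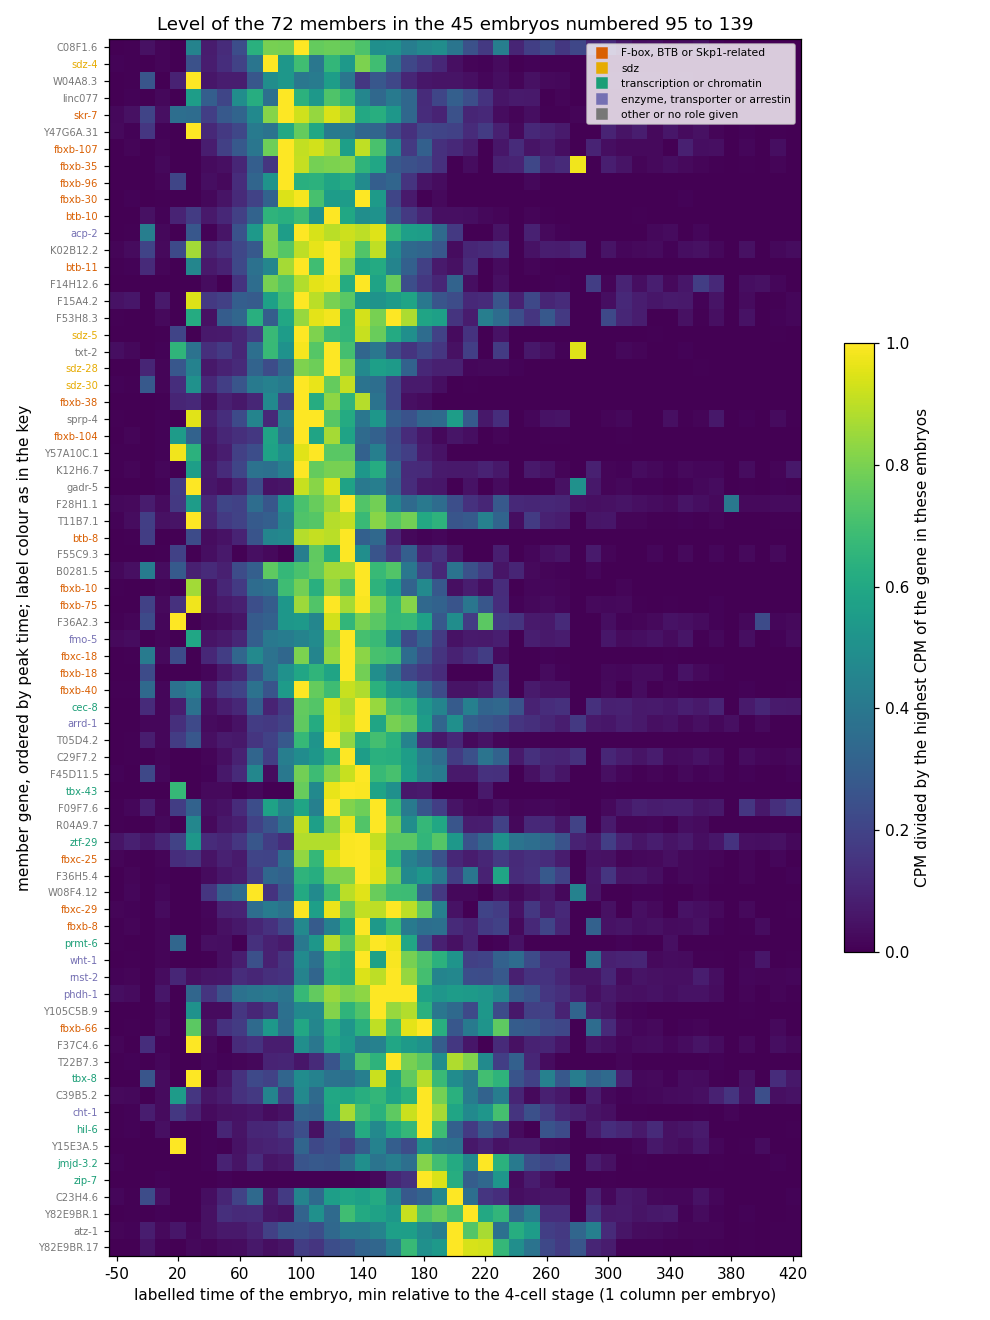
CPM of the 72 members (rows, ordered by peak time) in the 45 embryos of block 5 (columns, by labelled time in min), each divided by the gene's highest CPM in those embryos. Most rows are brightest from 100 to 150 min and the last rows from 170 to 220 min. Bright cells at 20, 30 and 280 min lie in embryos with 18624 to 27138 gene counts, where a few reads make a high CPM.

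Together the members took 1.51% to 3.23% of all gene counts in the 13 embryos at 110 to 190 min, with a median of 2.47%. Their share was 0.0441% to 0.423% at -50 to 10 min. The median share was 1.37% at 200 to 220 min, 0.316% at 260 to 290 min, 0.0370% at 400 to 590 min and 0.0271% at 600 to 840 min. Fewer cells with a transcript and less transcript per cell cannot be told apart in whole embryos. At 20 to 50 min the share was 0.319% to 1.21% in 4 embryos under 100000 gene counts and 0.0840% to 0.449% in the other 7.

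A peak time was read for each member from the block 5 embryos, as the time of the highest running mean over 3 neighbouring embryos. The median peak was at 130 min and the range was 90 to 210 min. Of the 72 members, 10 peaked by 100 min, 41 at 110 to 140 min, 17 at 150 to 190 min and 4 at 200 min or later. The level stayed at 50% of the peak or more for a median of 80 min, from 20 min for zip-7 to 130 min for tbx-8. Of all 72 members 51 peaked by 140 min, as did 25 of the 34 with no role given (median 130 min). Beside these the sdz genes came early and the ligase genes slightly so, though the 3 fbxc genes peaked at 130 to 150 min. Of the 19 ligase genes, 16 peaked by 140 min (median 120 min), as did all 4 sdz genes (median 110 min). Only 3 of the 8 transcription and chromatin genes did so (median 165 min), and 3 of the 7 enzyme, transporter and arrestin genes (median 150 min). These times rest on 1 embryo per time point and carry no test.

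The most abundant member was skr-7, at 3497 ± 2575 CPM (SD, n = 13) over 110 to 190 min against 412 ± 265 (SD, n = 8) at -50 to 10 min. The mean of cht-1 lay close behind, at 3479 CPM. In block 2 skr-7 held 6730 to 9098 CPM at 110 min and 2161 to 6605 CPM at 140 min. The block 5 embryos at these times held 3524 and 2520 CPM, so the order of skr-7 and cht-1 depends on the block 2 embryos. It belongs to the Skp1-related family, whose worm members link F-box proteins to cullin. In block 5 its level was 1356, 1993, 3422, 4188 and 3889 CPM in the embryos at 60, 70, 80, 90 and 100 min, and 3524, 3954, 3691 and 2520 CPM at 110, 120, 130 and 140 min. The embryos at 150, 160, 170, 180 and 190 min held 2621, 2212, 1397, 528 and 423 CPM. The level thus stood near its highest from 80 to 130 min and fell step by step after 150 min. Its close relatives were also high but did not meet the rule, and each was higher at 60 to 100 min. The mean over 110 to 190 min was 1140 CPM for skr-8, 1276 for skr-10, 1555 for skr-14 and 457 for skr-9, against 1404, 1842, 1936 and 1244 CPM at 60 to 100 min. At this limit skr-7 itself passed narrowly, with 3173 CPM at 60 to 100 min, a ratio of 1.10. Its peak in block 5 was at 100 min, so its place inside the limit depends on the block 2 embryos. Reads from near-identical skr copies may have been placed at 1 of them, since the line for reads with several alignments holds 0 reads, so the split between skr-7 and its copies is uncertain. The same holds for the other large families.

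The 3 BTB members followed the same course. BTB proteins are adaptors of a second class of cullin ligases. In the 8 embryos at 110 to 140 min the lowest, median and highest levels of btb-11 were 241, 424 and 703 CPM, and those of btb-10 were 93.7, 471 and 732 CPM. At 150, 160, 170, 180 and 190 min btb-11 stood at 337, 250, 170, 104 and 39.0 CPM. The embryos at 170, 180 and 190 min therefore held less than any embryo at 110 to 140 min. In the same 5 embryos btb-8 stood at 247, 72.7, 15.9, 7.91 and 13.3 CPM. It was at 0 CPM in the 25 embryos of each of the last 2 groups.

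The F-box members were less abundant. The highest was fbxb-75, at 315 ± 146 CPM (SD, n = 13) over 110 to 190 min, followed by fbxb-10 at 206 ± 94.1, fbxc-25 at 172 ± 90.6 and fbxb-38 at 139 ± 113. The lowest was fbxb-30, at 50.2 ± 38.8 CPM, just above the limit of the rule. The decline of fbxb-38 was steep, with 322 CPM at 140 min and 138, 74.1, 14.3, 10.6 and 0 CPM at 150 to 190 min in block 5. In contrast fbxb-66 stood at 103, 78.0, 109, 113 and 71.8 CPM in those 5 embryos, and its peak was at 170 min. Most genes of these families were not members, though members made up only 0.348% of all genes in the table. Of 104 listed fbxb genes, 44 reached 50 CPM over 110 to 190 min, 12 were members, and 20 more passed both folds but were higher at 60 to 100 min. Of 48 fbxc genes 10 reached 50 CPM and 3 were members. Of 170 fbxa genes only 2 reached 50 CPM, and none was a member. Of 36 bath genes 7 reached 50 CPM, and none of these 7 passed either fold.

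The sdz members were sdz-28 at 454 ± 255 CPM over 110 to 190 min, sdz-30 at 366 ± 274, sdz-4 at 323 ± 204 and sdz-5 at 79.5 ± 58.5 (SD, n = 13). In block 5 sdz-30 was at 838 CPM at 100 min, 809 at 110 min, 640 at 120 min and 763 at 130 min. It then held 320, 303, 171, 60.3, 62.0 and 31.9 CPM from 140 to 190 min. The last 3 of these embryos lay below all 8 embryos at 110 to 140 min. Of 33 listed sdz genes, 9 reached 50 CPM, and 3 that passed both folds were higher at 60 to 100 min, among them sdz-25.

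Among the regulators, cec-8 was the most abundant. It encodes a chromodomain protein, a class that binds methylated histones. Its lowest, median and highest levels at 110 to 140 min were 611, 1329 and 2044 CPM, and the 5 embryos at 150 to 190 min held 1157, 972, 909, 719 and 618 CPM. The zinc finger gene ztf-29 stood at 549 ± 205 CPM (SD, n = 13). A pair of T-box transcription factor genes differed in their timing. The level of tbx-43 was 84.5 CPM at 100 min in block 5, 52.0 to 110 CPM at 110 to 140 min, and then 64.0, 55.0, 7.13, 7.91 and 0 CPM at 150 to 190 min. It was 0 to 2.23 CPM in the block 5 embryos at 60 to 90 min, so its rise fell between 90 and 100 min. The level of tbx-8, which acts redundantly with tbx-9 in body morphogenesis, was 117, 71.4, 96.0, 113 and 85.9 CPM at 150 to 190 min. The 4 earlier block 5 embryos, from 110 to 140 min, held 46.7 to 56.2 CPM and the 4 of block 2 held 26.2 to 176 CPM, so the groups overlapped. Its relative tbx-9 was no member, with 74.0 CPM over 110 to 190 min and 76.3 CPM at -50 to 10 min.

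The bZIP gene zip-7 had the narrowest profile of the 72 members. At 60 to 100 min it was at 0 in 8 of 9 embryos, and at 110 to 140 min it was at 0 in 6 of 8 embryos and at 1.95 and 13.3 CPM in the others. The embryos at 150, 160, 170, 180 and 190 min then held 9.26, 40.0, 51.6, 372 and 351 CPM. Its mean was 271 ± 140 CPM (SD, n = 11) at 200 to 220 min and 6.65 ± 6.44 (SD, n = 8) at 260 to 290 min. Its membership at 64.5 CPM therefore rests on the embryos at 180 and 190 min. For 2 other chromatin genes the groups overlapped and no call was made. The level of jmjd-3.2, of the JmjC histone demethylase family, was 68.2, 75.4, 64.2, 144 and 122 CPM at 150 to 190 min and 0 to 87.7 CPM at 110 to 140 min. The linker histone gene hil-6 was at 86.7, 112, 122, 184 and 127 CPM and at 0 to 113 CPM in the same groups. The arginine methyltransferase family gene prmt-6 went the other way within block 5, with 111, 108, 65.8, 26.4 and 9.75 CPM at 150 to 190 min.

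**Figure D2:**
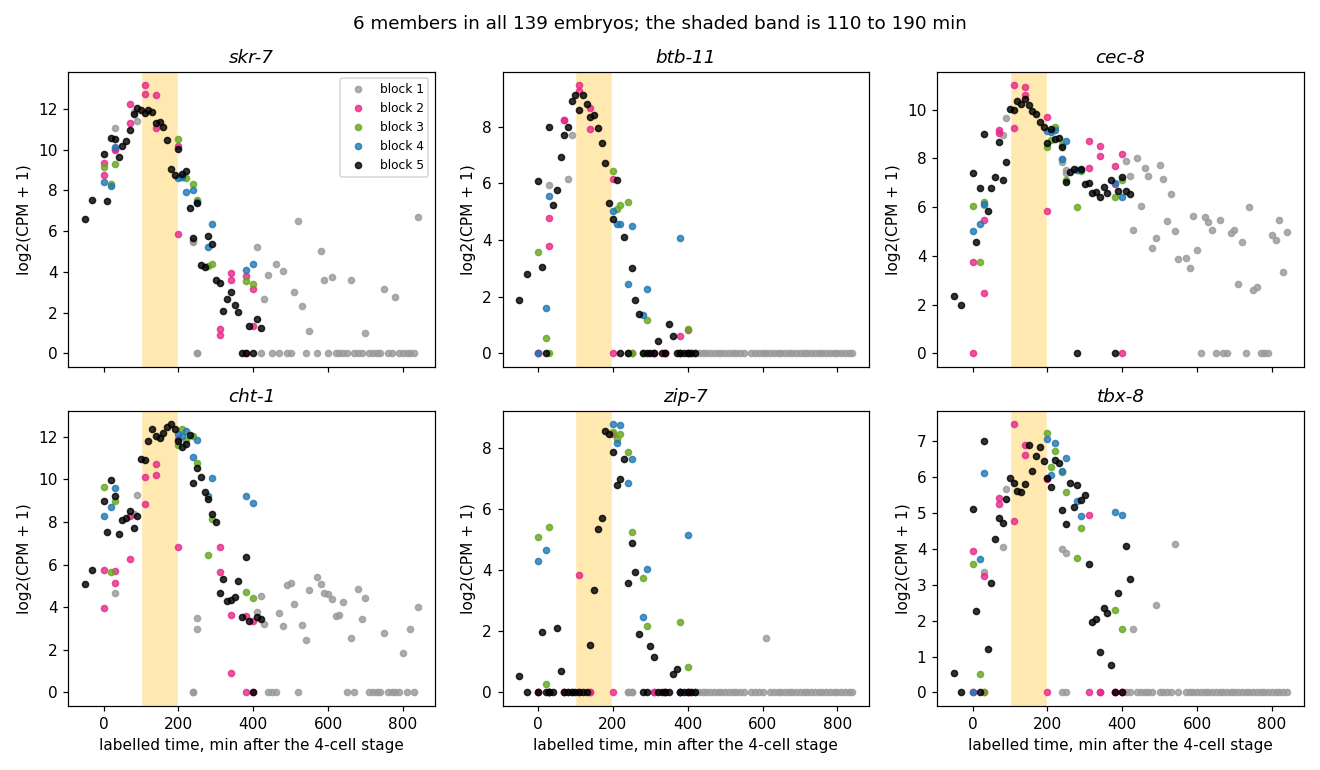
Level of 6 members, as log2(CPM + 1), in each of the 139 embryos by labelled time in min, coloured by block. The shaded band is 110 to 190 min. In block 5 skr-7 and btb-11 fall within the band, cht-1 and tbx-8 stay high to its end, and zip-7 is highest near its end.

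Of the enzyme genes cht-1 was still near its highest level at the end of the window. The chitinase gene cht-1 was second only to skr-7 in the mean over both blocks, at 3479 ± 1966 CPM (SD, n = 13). Chitinases cut chitin, which in the worm embryo is found in the eggshell. Its level was 207 to 371 CPM in the block 5 embryos at 60 to 90 min and 2006 CPM at 100 min. At 110, 120, 130 and 140 min it was 1913, 3599, 5365 and 4270 CPM, and at 150 to 190 min it was 3922, 4625, 5640, 6140 and 5307 CPM. The 11 embryos at 200 to 220 min still held 3599 ± 1380 CPM (SD). The lysosomal ribonuclease gene rnst-2 stood at 914, 1017, 857, 714 and 461 CPM at 150 to 190 min, against 100 to 965 CPM at 110 to 140 min. The gene phdh-1, for the phosphoglycerate dehydrogenase that opens serine synthesis, stood at 327 to 640 CPM at 110 to 140 min, and at 641, 642, 641, 369 and 338 CPM at 150 to 190 min. Its last 2 embryos thus stood lower than the 3 before them. The arrestin-domain gene arrd-1 stood at 1149 ± 535 CPM over the whole window (SD, n = 13), the acid phosphatase gene acp-2 at 146 ± 83.6, the flavin monooxygenase gene fmo-5 at 83.4 ± 71.6 and the ABC transporter gene wht-1 at 58.8 ± 34.7.

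Among members with no role given here, F28H1.1 reached 1354 ± 479 CPM, B0281.5 1266 ± 762, atz-1 852 ± 382, T05D4.2 647 ± 389, T11B7.1 560 ± 148, Y82E9BR.17 524 ± 375 and C08F1.6 417 ± 114 (SD, n = 13). A late subset was visible here as well. The level of Y82E9BR.17 was 75.3 to 581 CPM in the 8 embryos at 110 to 140 min, and 600, 792, 1235, 918 and 992 CPM at 150 to 190 min. The groups did not overlap, and its mean was higher still at 200 to 220 min, at 1158 ± 578 CPM (SD, n = 11). Its direct neighbour on chromosome III, the pseudogene Y82E9BR.1, also peaked late, at 200 min. The level of atz-1 was 1304 ± 719 CPM at 200 to 220 min (SD, n = 11), above its mean over the window.

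The first comparison set the 5 embryos at 150 to 190 min against the 8 at 110 to 140 min, to place each member inside the pulse. The rule used the mean over both groups, so a member that met it through 1 group alone had to differ between them. Of the 72 members, 33 would have met the rule on either group alone, 33 only on the 110 to 140 min group and 6 only on the 150 to 190 min group. The differences are therefore given as a description. In edgeR's quasi-likelihood fit over 6646 genes, with a call at a minimum 2-fold change and adjusted p below 0.05, 2 members were higher at 150 to 190 min (1.02% of all genes tested) and 5 were lower (3.43%). Both that were higher met the rule only on the late group, and all 5 that were lower only on the early group. The 2 were zip-7 and Y82E9BR.17, the latter with a log2 fold change of 1.62 ± 0.44 (SE). The fitted fold change of zip-7 rests on a level near 0 and is left out here. The 5 were sdz-30 (log2 fold change -2.15 ± 0.53), skr-7 (-1.86 ± 0.49), B0281.5 (-1.59 ± 0.43), Y47G6A.31 (-1.50 ± 0.35) and K02B12.2 (-1.31 ± 0.33). The 2 groups overlapped for skr-7, zip-7, sdz-30 and K02B12.2, while B0281.5 at 157 to 1037 CPM lay below its 1080 to 2606 CPM at 110 to 140 min, and Y47G6A.31 at 29.6 to 69.0 CPM lay below its 70.2 to 203 CPM.

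These calls depended on how the embryo blocks were handled. The early group held 4 embryos of block 2 and 4 of block 5, and the late group was all of block 5. At the same labelled times, 110 and 140 min, 46 members lay within 2-fold between those blocks, 21 were higher in block 2, and the median log2 difference of block 2 from block 5 was -0.64 with 1 CPM added. Adult yolk transcripts of the vit genes took 0.405% to 3.31% of the counts in the block 2 embryos and 0.0216% to 0.462% in the block 5 embryos at 110 to 140 min, and 0.0199% to 0.0989% at 150 to 190 min. Their part in the result was not tested. Within block 5, with 4 embryos against 5, 1 member was higher (zip-7, 2.95% of all genes tested) and 16 were lower (5.16%). The 16 were sdz-30, btb-8, fbxb-18, fbxb-35, fbxb-38, fbxb-96, fbxb-104, K02B12.2, Y47G6A.31, sprp-4, W04A8.3, Y57A10C.1, F55C9.3, gadr-5, linc077 and txt-2, named after their values were seen. Each of them met the rule only on the 110 to 140 min group. With block as a covariate no gene of the table was called in edgeR (705 at an unadjusted p under 0.05). Without the embryo at 150 min 1 member was called higher and 7 lower. Of all 6864 genes tested 56 were then higher and 123 lower. Leaving out any of the other 4 late embryos left 0 members lower and 0 or 1 higher. Over all genes these 4 fits gave 1 to 32 lower and 2 to 28 higher.

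The second comparison set 260 to 290 min against 200 to 220 min, and no embryo of these groups entered the rule. A member must fall between 190 and 300 min to meet the late fold, so the direction is set by the choice of genes. What the comparison adds is how far the fall had gone. Of the 72 members, 39 passed the filter on low counts. Passing was easier for members high at 200 to 220 min, which itself favoured a call of lower. Lower at 260 to 290 min were 31 members, against 4.11% of all 5422 genes tested, and higher were 0, against 6.33% (edgeR, with 0 members higher at an unadjusted p under 0.05 and 0 called higher in DESeq2). With no filter all 72 members could be tested, and 52 were lower, against 2.88% of 15391 genes, and 0 higher, against 9% (edgeR). In that fit 69 members had a negative log2 fold change and 3 a positive one. The median log2 fold change of the 39 members was -1.96, against 0.04 over all genes tested. Within block 5, 16 of 23 members tested were lower, against 3.58% of genes, and 0 higher, against 3.11%.

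Among the 39 members that passed the filter, the largest fall was that of T22B7.3, with a log2 fold change of -5.15 ± 0.57 (SE, adjusted p = 2.6e-07, edgeR), followed by zip-7 (-5.13 ± 0.54, 8.5e-08), T05D4.2 (-4.63 ± 0.83, 2.0e-04), btb-11 (-4.25 ± 0.60, 9.8e-06) and skr-7 (-4.16 ± 0.53, 3.2e-06). The lowest, median and highest levels of T22B7.3 were 0, 92.1 and 175 CPM in the 11 embryos at 200 to 220 min and 0, 0.548 and 6.74 CPM in the 8 at 260 to 290 min. Those of skr-7 were 55.9, 407 and 1441 CPM and then 18.1, 28.0 and 79.7 CPM. For zip-7 they were 0, 309 and 434 CPM and then 0, 4.03 and 15.5 CPM. The lowest value at 200 to 220 min was in each case that of embryo 61, whose 17878 gene counts resembled a much later stage. Without it and the other embryos off their label, 40 of 48 members tested were lower, against 5.6% of genes, and 0 higher, against 7.13% (edgeR). The chitinase gene cht-1 changed by -2.58 ± 0.47 (adjusted p = 2.8e-04, edgeR), from a median of 3730 to 564 CPM. Smaller falls were those of cec-8 (-1.61 ± 0.38, 0.00397), tbx-8 (-1.29 ± 0.37, 0.0195) and C08F1.6 (-1.18 ± 0.35, 0.0239). Members that did not pass were fbxb-8 at -0.64 ± 0.43 (adjusted p = 0.430, edgeR), ztf-29 at -0.81 ± 0.35 (0.153), F36H5.4, hil-6, atz-1, fbxb-66, Y47G6A.31 and F15A4.2, all with negative log2 fold changes.

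**Figure D3:**
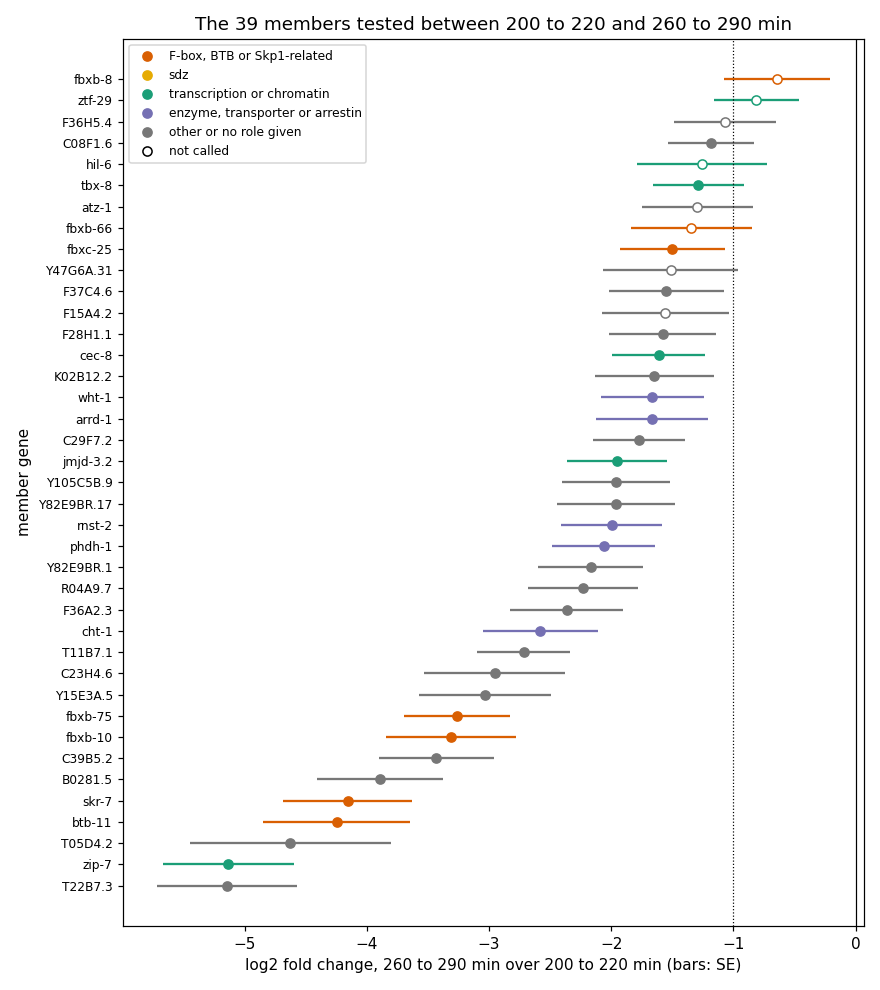
Log2 fold change of 260 to 290 min over 200 to 220 min for the 39 members tested (points, with bars for the SE; filled where called, open where not). All 39 lie below 0, from -0.64 for fbxb-8 to -5.15 for T22B7.3; the 33 members under the count filter are not drawn.

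The classes that peaked early stood lower after the window. The level at 200 to 220 min, as a share of that at 110 to 140 min, had a median of 12.2% over the 19 ligase genes and 6.74% over the 4 sdz genes. It was 71.0% over the 8 transcription and chromatin genes, 63.6% over the 7 enzyme, transporter and arrestin genes and 32.4% over the other 34. These shares use embryos of the rule and are a description. Low levels are also why only 7 of the 19 ligase genes and none of the sdz genes passed the count filter. With no filter 11 of the 19 ligase genes, 4 of 4 sdz genes, 5 of 8 regulators and 6 of 7 enzyme, transporter and arrestin genes were lower at 260 to 290 min. The share over all 15391 genes tested was 2.88%. In the whole families, with the filter, 3 of 10 fbxb genes tested were lower and 2 higher, 2 of 7 fbxc genes were lower, 2 of 2 btb genes were lower and 5 of 11 skr genes were lower (edgeR). Of all 5422 genes tested 4.11% were lower and 6.33% higher.

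The third comparison asked which members still stood above their early level just after the pulse, with 200 to 220 min against 20 to 50 min. No embryo of the rule was used, but these groups lie just after its early window and just after the pulse. The choice of genes therefore favoured higher calls. Passing the filter was also easier for members high at 200 to 220 min, such as zip-7, with medians of 0 and 309 CPM. Of 42 members tested 30 were higher, against 23.8% of all 5208 genes tested, and 1 was lower, against 23.3% (edgeR). With no filter 34 of 72 were higher, against 17.5%, and 2 lower, against 19.3%. By class, with no filter, 6 of 8 regulators, 6 of 7 enzyme, transporter and arrestin genes, 5 of 19 ligase genes and 0 of 4 sdz genes were higher. The member lower in both fits was sdz-30, by -3.03 ± 0.64 (SE, adjusted p = 1.9e-04, edgeR). Its level was 95.8 ± 119 CPM (SD, n = 11) at 20 to 50 min and 7.01 ± 8.99 (SD, n = 11) at 200 to 220 min. The second member lower with no filter was btb-8, at 23.7 ± 49.8 and 1.38 ± 2.11 CPM (SD, n = 11 each).

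Among the 42 members that passed the filter, the largest rises were those of zip-7 (log2 fold change 6.36 ± 0.81, adjusted p = 1.1e-07, edgeR), T22B7.3 (5.42 ± 0.68, 8.6e-08), Y105C5B.9 (5.08 ± 0.76, 1.5e-06) and Y82E9BR.17 (4.81 ± 0.79, 5.7e-06). The level of Y82E9BR.17 was 56.6 ± 78.9 CPM (SD, n = 11) at 20 to 50 min and 1158 ± 578 at 200 to 220 min. For cht-1 the log2 fold change was 3.72 ± 0.56 (adjusted p = 1.8e-06, edgeR) and for tbx-8 3.54 ± 0.69 (7.2e-05). The change of skr-7 was -0.69 ± 0.43 (adjusted p = 0.178, edgeR), with 1040 ± 539 CPM before and 585 ± 429 CPM after (SD, n = 11 each). The call of Y47G6A.31 (1.37 ± 0.59, adjusted p = 0.04999, edgeR) rests on embryo 61, in which it stood at 1231 CPM while the other 10 embryos lay at 26.1 to 68.6 CPM, and it was lost without that embryo. Within block 5, where 2 of the 4 early embryos are shallow, 17 of 31 members tested were higher and 2 lower, against 22.2% and 24.5% of genes.

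By 400 to 590 min, when the embryo elongates into a worm, the members were lower still. Of 27 tested against 200 to 220 min 26 were lower, against 28.8% of all 6583 genes tested, and 0 were higher, against 30.1% (edgeR, with 0 higher at an unadjusted p under 0.05 and 0 in DESeq2). Passing the filter was easier for members high at 200 to 220 min, which itself favoured a call of lower. With no filter 68 of 72 were lower, against 16.9%, and 0 higher, against 33.3%. Among the 27 members that passed the filter, the largest falls were those of zip-7 (log2 fold change -8.42 ± 0.64, adjusted p = 8.7e-14, edgeR), jmjd-3.2 (-7.08 ± 0.62, 3.9e-12), C08F1.6 (-6.88 ± 0.68, 4.0e-11) and cht-1 (-6.85 ± 0.64, 1.2e-11). The exception was F09F7.6, at 36.3 ± 46.9 CPM (SD, n = 11) and then 29.3 ± 26.8 CPM (SD, n = 25), a change of -0.51 ± 0.51 (adjusted p = 0.387, edgeR). At 400 to 590 min the medians of zip-7, jmjd-3.2 and C08F1.6 were 0 CPM, so their falls rest on levels near 0. The late fold asks for low levels at 300 to 390 min, so the choice of genes favoured lower levels just after it. It did not fix the level after 390 min.

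Most members stayed low until hatching. At 400 to 590 min 52 members had a mean under 5 CPM, and at 600 to 840 min 57 did. No read of 35 members was counted in the 25 embryos at 600 to 840 min, which allows a mean of up to 0.199 CPM (3 counts over the group, counting error only). Among these 35 were btb-8, btb-10, btb-11, fbxb-75, tbx-8, jmjd-3.2, hil-6 and atz-1. At the other end 11 members had a mean of at least 10 CPM at 600 to 840 min. All 25 of those embryos, and 18 of the 25 at 400 to 590 min, belong to block 1.

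The last comparison set 600 to 840 min against 400 to 590 min. Only 5 members passed the count filter. The zinc finger gene ztf-29 rose, against 13.3% of all 5288 genes tested, from 23.7 ± 19.2 to 53.6 ± 58.6 CPM (SD, n = 25 each; log2 fold change 1.48 ± 0.49, adjusted p = 0.0133, edgeR). The chromodomain gene cec-8 fell, against 15.6%, from 103 ± 84.4 to 19.2 ± 19.0 CPM (SD; -1.95 ± 0.46, 5.8e-04). With no filter 5 of 66 members tested were higher, against 17.2%, and 29 lower, against 14.8%, while 6 members had no reads in either group. Beside ztf-29 the higher members were F53H8.3, Y15E3A.5, Y105C5B.9 and fbxb-104, chosen after their values were seen. The call of fbxb-104 rests on 1 embryo, at 8.0 CPM, with the other 24 and all 25 at 400 to 590 min at 0. The level of F53H8.3 went from 3.36 ± 9.53 to 39.0 ± 70.0 CPM and was above 0 in 22 of 25 embryos at 600 to 840 min. One of these, embryo 38 with 39430 gene counts, held 355 CPM, and without it the mean was 25.8 ± 24.3 CPM (SD, n = 24). That of Y15E3A.5 went from 2.70 ± 4.63 to 26.4 ± 26.8 CPM. That of F36A2.3 was 18.2 ± 22.1 and 31.2 ± 22.2 CPM, which did not pass (1.05 ± 0.51, adjusted p = 0.107, edgeR).

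**Figure D4:**
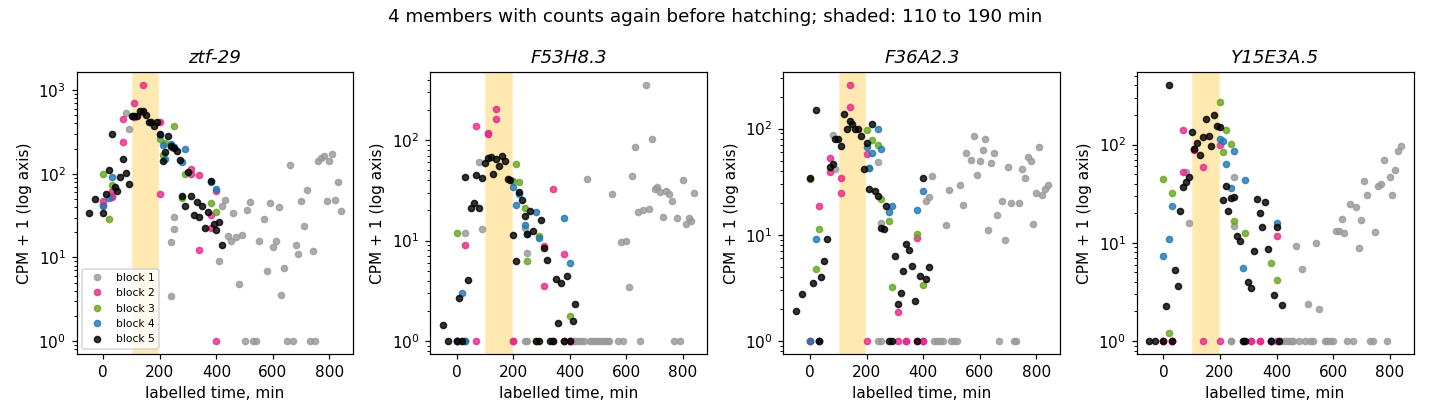
CPM + 1 (log axis) of 4 members in each of the 139 embryos by labelled time in min, coloured by block, with 110 to 190 min shaded. F53H8.3 and Y15E3A.5 stand at 5.67 and 6.22 CPM on average at 300 to 390 min and at 39.0 and 26.4 CPM at 600 to 840 min; ztf-29 stands at 53.2 and 53.6 CPM, with 23.7 CPM between them, and F36A2.3 did not pass the test.

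The members were spread unevenly over the genome. Of the 71 placed on a chromosome 29 (40.8%) were on chromosome II, which holds 18.5% of the genes that reached 50 CPM over 110 to 190 min. The other chromosomes held 6 to 10 members each, and chromosome X held 10 (14.1%, against 11.3%). Of the 22 F-box, BTB and sdz genes 18 were on chromosome II. Of the other 49 members placed, 11 were there. Since large gene families lie in clusters, these genes are not independent draws, and no test was made. With at most 4 genes between them, 5 pairs of members were neighbours. They were sdz-4 and fbxc-18, fbxb-30 and F45D11.5, fbxb-40 and btb-10, and fbxc-25 and B0281.5 on chromosome II, and Y82E9BR.17 and Y82E9BR.1 on chromosome III.

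**Figure D5:**
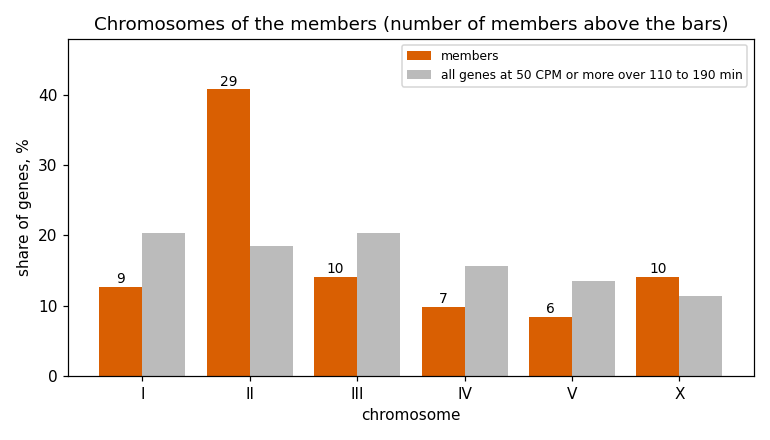
Share of genes on each chromosome, in percent, for the 71 members placed (orange, with their number above) and for all genes at 50 CPM or more over 110 to 190 min (grey). Chromosome II holds 40.8% of the members and 18.5% of the other set, and each other autosome holds a smaller share of the members than of that set.

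In the annotation 13 members overlap another gene, 2 on the same strand and 11 on the opposite strand. The same-strand pairs are fbxb-18 with fbxb-19 and W08F4.12 with fbxb-14. On the opposite strand cht-1 overlaps slcf-2, phdh-1 overlaps tag-10, atz-1 overlaps wdr-46 and fbxb-38 overlaps the antisense RNA gene anr-48. The sources used here do not say whether strand was used in counting, so reads of such pairs may not be told apart.

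Of 374 listed genes found in the table, in 14 lists of regulators and other markers, 1 was a member, near the share of members among all genes (0.348%). It was tbx-8, from the list of mesoderm and muscle regulators. In that list 12 of 22 genes reached 50 CPM over 110 to 190 min, 6 of them at 8 times the early mean and 5 at 8 times the late mean. Of 42 listed genes of gastrulation movement and cell junctions 29 reached 50 CPM, and none of these 29 passed either fold. Of 19 epidermal regulators 6 reached 50 CPM and of 17 pharynx regulators 7 did, with 5 of each passing the early fold and 0 the late fold. None of the listed sperm genes reached 50 CPM. All 6 yolk genes did. Each was called lower at 150 to 190 min than at 110 to 140 min in edgeR, and none of the 6 was called with block as a covariate, within block 5 or with any 1 of the 5 late embryos left out.

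The limits of the rule passed through families. Just inside the 50 CPM limit lay fbxb-30 at 50.2 CPM, txt-2 at 57.2 and wht-1 at 58.8, and just outside it ceh-36 at 49.5, tps-2 at 48.4 and xol-1 at 48.3. At the early fold F45D11.5 (8.14), fbxc-18 (8.29) and skr-7 (8.49) were just inside, and btb-6 (7.86), hnd-1 (7.65) and Y71A12B.11 (7.63) just outside. At the late fold cec-8 (8.40), F14H12.6 (8.51) and F09F7.6 (9.24) were inside, and C06E1.1 (7.76), cbs-1 (7.61) and best-13 (7.25) outside. At the ratio to 60 to 100 min K12H6.7, sdz-4 (1.01) and linc077 (1.02) were inside, and fbxb-3 (0.977), sdz-25 (0.976) and fbxb-91 (0.973) outside.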

How the data were processed

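Messenger RNA of 139 single C. elegans embryos was measured by CEL-Seq. The authors deposited 1 table of raw counts with 20784 lines (20687 genes, 92 spike-in RNAs and 5 counters), not normalized. Per the submitters' processing notes CASAVA 1.8, Bowtie2 2.1.0 and HTSeq 0.5.4p3 were used. The genome build and the strand setting are not given in the sources used here. Genes took 47.2% of the reads, counters 52.6% and spike-ins 0.167%; the latter 2 stayed out of library sizes and tests. No molecular identifiers are named, so counts are reads after amplification, and limits on a count of 0 cover counting error only.

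CPM was computed here over gene lines. Names and chromosomes came from Ensembl release 115 (20083 lines matched). The members, their classes by name, the lists and the comparisons were chosen with earlier results of these data known. Each comparison used only the embryos of its 2 groups, with edgeR 4.0.16 in R 4.3.3 (TMM, filterByExpr with a minimum count of 10, quasi-likelihood test) over all genes, and a call needed a fold of 2 or more with p, adjusted after Benjamini and Hochberg, below 0.05. Embryos of a group are separate embryos from labels that name no culture or mother.

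The test was checked on simulated counts, drawn with no difference between blocks and no time trend within a group. The check therefore does not cover the block differences of the real groups. For 150 to 190 against 110 to 140 min (6646 genes) calls were made for 3 of the 100 genes given a 2-fold change and for 40 of the 100 given a 4-fold change. For 260 to 290 against 200 to 220 min (5422 genes) the same figures were 23 and 91, with 6 false calls among 5222 unchanged genes.

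Alternatives were RLE size factors, no filter, DESeq2 1.42.0, block as a covariate, block 5 only, leaving out embryos whose expression resembled a time over 100 min from their label, and leaving out each late pulse embryo. Leaving out embryos under 100000 gene counts was chosen after seeing the data. Named members are the 15 most abundant, those in a list, the 4 called members with the largest change per comparison and direction, and the 3 genes nearest each limit of the rule on either side; others named were chosen after their values were seen, to show the members of each class.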

Additional observations from a re-analysis of the deposited data

Results flagged for a closer look

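In the 33 members named by rule, the highest or lowest embryo was set against the rest of its group in 99 groups of 4 to 10 embryos, and 12 stood apart by Dixon's test at 95%. Chance gives about 1 such group in 20 for draws from 1 normal population. These groups mix labelled times, blocks and depths, so that rate is no yardstick for the 12. At 110 to 140 min, embryo 60 of block 2 was high for T11B7.1, at 976 CPM with the next at 652, and for ztf-29, at 1164 CPM with the next at 711. Embryo 57 of block 2 held zip-7 at 13.3 CPM, with the next embryo at 1.95, and embryo 59 of block 2 held fbxb-30 at 0 CPM, with the next at 62.5. At 150 to 190 min the embryo at 150 min held F28H1.1 at 1753 CPM, with the next at 1005.

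At 260 to 290 min 7 members had 1 high embryo. Embryo 126, with 74793 gene counts, held wht-1 at 40.1 CPM and F14H12.6 at 26.7 CPM, and embryo 125, with 18624 gene counts, held txt-2 at 107 CPM, so each of these rests on few reads. The others were T05D4.2 at 17.5 CPM in embryo 92, T22B7.3 at 6.74 CPM in embryo 123, linc077 at 2.19 CPM in embryo 124 and fbxb-30 at 0.316 CPM in embryo 80.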

How the results depend on the processing

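With a limit of 100 CPM the rule gave 40 members, with a fold of 4 it gave 133 and with a fold of 16 it gave 30, against 72. Without embryos under 100000 gene counts it gave 84, of which 71 are members. For 150 to 190 against 110 to 140 min the members higher were 0 with block as a covariate and 1 in block 5 only, and the members lower were 0 with the covariate, 13 in DESeq2 and 16 in block 5 only. Leaving out each late embryo gave 0 to 1 higher and 0 to 7 lower, with 0 lower in 4 of the 5 cases. For 260 to 290 against 200 to 220 min the members lower were 52 with no filter and 16 in block 5 only, where 23 were tested. For 200 to 220 against 20 to 50 min 17 were higher in block 5 only, and 2 were lower with no filter, in DESeq2, in block 5 only and without the shallow embryos. For 400 to 590 against 200 to 220 min 68 were lower with no filter and 61 in DESeq2, where 2404 of all 11638 genes were lower. For 600 to 840 against 400 to 590 min 5 were higher with no filter and 4 in DESeq2, and 29 and 5 were lower. In that DESeq2 fit 1597 of all 12127 genes were higher and 1695 lower. With no filter more members are tested; the cause of the other changes was not tested. Over the called results of named members 403 of 450 alternative values kept direction and call, 47 kept direction and lost the call, and 0 reversed. These fits reuse the same embryos and start from results already called, so reversals were unlikely from the start. The losses fall mostly on 150 to 190 against 110 to 140 min, with 35 of 60 values lost there (25 of 30 with an embryo left out and 6 of 6 with the covariate), against 12 of 390 elsewhere. No embryo off its label is in the 110 to 190 min groups, and block 5 holds no embryo at 600 to 840 min, so those 2 alternatives were not run. No paired analysis was possible because each embryo has its own number and the replicate numbers only name embryos. Low depth limits the members below a few CPM, where 1 read of a shallow embryo exceeds the level.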
